A study of Mus musculus with 12 samples.

Results

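The genes of Wnt signaling at the cell surface, with the 2 Axin scaffolds, were followed through 12 RNA-seq libraries of the mouse tibialis anterior, a fast-twitch muscle of the shin. Members were taken by symbol, in a set chosen with earlier results of these data known. They were the Wnt ligands, the Frizzled (Fzd) receptors, the secreted Frizzled-related proteins (Sfrp) and the Dickkopf antagonists (Dkk). With them were the R-spondins (Rspo), Axin1 and Axin2, and the receptors Lrp4, Lrp5 and Lrp6. All members came to 46 of the 23923 genes listed. Levels are in FPKM, the fragments of a gene divided by its transcript length in kilobases and scaled to the number of mapped fragments in the library. Of the 46 members, 28 reached 0.1 FPKM in at least 6 libraries and were tested among 12695 genes.

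The study asked what the loss of Smyd1, a muscle-restricted lysine methyltransferase, does to mouse skeletal muscle. Its paper recalls that zebrafish with a null mutation of smyd1b do not build sarcomeres. There were 6 control mice (Myf6 cre/+; Smyd1 flox/+) and 6 conditional knockout (CKO) mice (Myf6 cre/+; Smyd1 flox/-), 1 library per mouse, all 6 weeks old and of strain C57BL6/J;129S1/SvImJ. Both groups also carried a Rosa26 YFP reporter allele, and the paper says that work after the first histology used male tissue, while the labels give no sex. Cre was expressed from the Myf6 locus and recombined in skeletal muscle cells from about birth, so that other cells of the muscle kept the floxed allele. Controls carried Cre as well and had a single floxed copy of Smyd1, and every cell of a CKO mouse had 1 null allele, so that whole-body heterozygosity and the myofiber deletion cannot be told apart in this comparison. No litter is given for any mouse, and p-values measure the spread between these mice.

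The libraries were muscle: the 10 myofiber markers summed to between 22410 and 36410 FPKM in controls and between 26140 and 30940 FPKM in CKOs. Smyd1 itself, taken over the whole gene, ran from 33.0 to 47.1 FPKM in controls and from 27.8 to 39.9 FPKM in CKOs, with a log2 fold change of -0.13 (limma, adjusted p = 0.545), and 3 CKOs lay below all controls. The floxed exons were not measured apart from the rest of the transcript, so this value does not check the genotypes. CKO 1, CKO 3 and CKO 6 stood apart by the sum of 8 slow-twitch markers, none of them at 0 in every library. The sums were 163.5, 106.7 and 323.9 FPKM against 29.9 to 62.2 FPKM in the other 9 libraries. Myh7, Tnni1, Tnnc1, Tnnt1, Myl2 and Atp2a2 were each highest in those 3 CKOs, while Myl3 and Casq2 were not. Myl3 was lowest of all libraries in CKO 3, at 8.80 FPKM, and Casq2 was higher in CKO 2 than in CKO 1 or CKO 3. Control 1 stood apart by its 14 markers of fibroblasts and fibro-adipogenic progenitors, at 945.1 FPKM against 256.7 to 327.5 FPKM in the other controls and 343.1 to 576.6 FPKM in CKOs. Relative sequencing depth, read from the size of the FPKM steps, ran from 0.984 to 1.77 times that of control 1. In whole muscle, fewer cells of a type and less RNA per cell cannot be told apart.

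**Figure D1:**
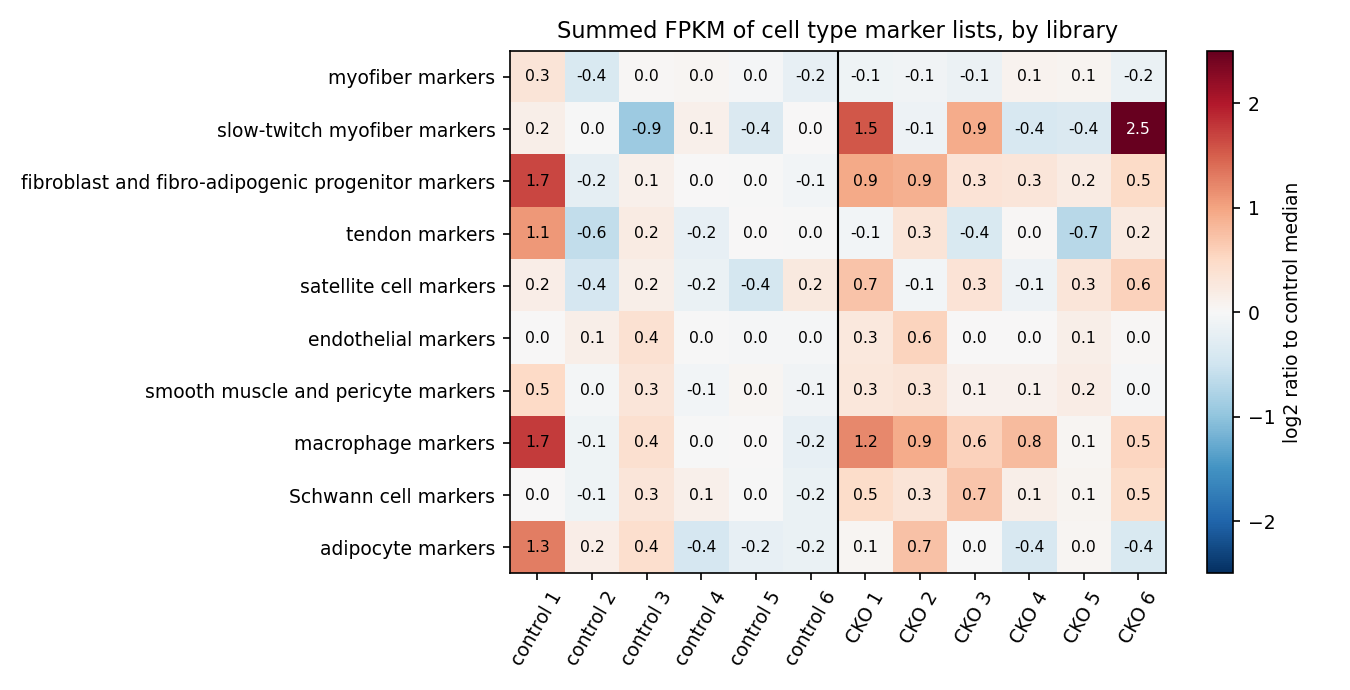
Summed FPKM of 10 cell type marker lists in each of the 12 libraries, as the log2 ratio to the control median (colour and printed value). The slow-twitch sum was high in CKO 1, CKO 3 and CKO 6. The sums of fibroblast, macrophage and tendon markers were high in control 1, where the adipocyte sum of 307.7 FPKM was 304.7 FPKM of Fabp4.

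Wnt proteins are secreted lipid-modified ligands. In the canonical branch a Wnt bound to a Frizzled and to Lrp5 or Lrp6 stops the Axin complex from destroying beta-catenin, which then acts with TCF/LEF factors in the nucleus, and Axin2 is a target that feeds back on the signal. Other Wnts act through Frizzleds without beta-catenin, on cell polarity and calcium. In muscle these signals are known from myoblast differentiation, satellite cells and the neuromuscular junction, where Lrp4 serves as the receptor for agrin.

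Promoters of 15 tested members were found in the RefSeq table, 18 starts in all (GRCm38.p6, windows of 250 bases before to 50 after each start). Lrp4 and Lrp5 had no entry. The 250 bases before the start are printed for Wnt5b, the ligand with the largest difference among those tested, for Fzd7, an abundant receptor that was higher in CKOs at an unadjusted p, and for Axin2, the canonical target. Wnt5b has 3 starts in the table, and the start printed was chosen because it alone of the 3 holds the TCF/LEF letters. Capitals mark matches on either strand to the TCF/LEF letters CTTTGAT or CTTTGAA and to the GC box GGGCGG, and neighbouring GC boxes may overlap.
Wnt5b, chr6:119449387-119449636, minus strand: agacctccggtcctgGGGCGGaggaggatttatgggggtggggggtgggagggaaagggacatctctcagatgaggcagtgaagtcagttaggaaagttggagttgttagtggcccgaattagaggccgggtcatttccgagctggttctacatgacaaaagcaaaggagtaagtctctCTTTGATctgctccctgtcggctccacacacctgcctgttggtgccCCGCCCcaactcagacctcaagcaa
Fzd7, chr1:59481897-59482146, plus strand: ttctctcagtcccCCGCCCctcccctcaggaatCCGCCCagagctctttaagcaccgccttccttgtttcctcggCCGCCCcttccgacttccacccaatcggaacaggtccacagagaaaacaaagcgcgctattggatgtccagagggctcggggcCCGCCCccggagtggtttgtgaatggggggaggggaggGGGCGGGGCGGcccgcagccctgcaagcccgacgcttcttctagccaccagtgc
Axin2, chr11:108920099-108920348, plus strand: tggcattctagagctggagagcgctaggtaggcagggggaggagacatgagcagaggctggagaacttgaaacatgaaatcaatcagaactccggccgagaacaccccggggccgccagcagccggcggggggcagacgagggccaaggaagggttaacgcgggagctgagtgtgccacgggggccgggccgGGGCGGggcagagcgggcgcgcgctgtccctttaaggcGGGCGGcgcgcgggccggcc
The TCF/LEF letters were found in 2 of the 18 member windows, in the Wnt5b start printed here, where the first letter lies 71 bases before the start, and in a start of Wnt11. They stood in 8.65% of all 32851 windows of the table. The GC box was found in 15 of the 18 member windows and in 35.7% of all windows. These are matches of letters and say nothing of binding.

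Lrp6, the canonical coreceptor, had the highest level of all members. In controls its level ran from 7.57 to 10.2 FPKM with a median of 9.29, and in CKOs from 8.42 to 11.8 FPKM with a median of 9.68. The groups overlapped, with CKO 1 and CKO 5 above all controls. Fzd4, a receptor also known from vessel growth, followed at 6.73 ± 1.27 FPKM (SD, n = 6) in controls, and Fzd7, a receptor known from satellite cells, at 3.43 ± 0.449 FPKM. Below these came Lrp5, Axin1, Lrp4 and Wnt9a, between 1.88 and 1.01 FPKM, and these 7 were the members at 1 FPKM or more in controls. From Lrp4 (1.04 ± 0.119 FPKM) through Wnt9a (1.01 ± 0.215) and Wnt5a (0.945 ± 0.368) to Fzd9 (0.781 ± 0.232), neighbours in the order differed by less than their SDs.

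**Figure D2:**
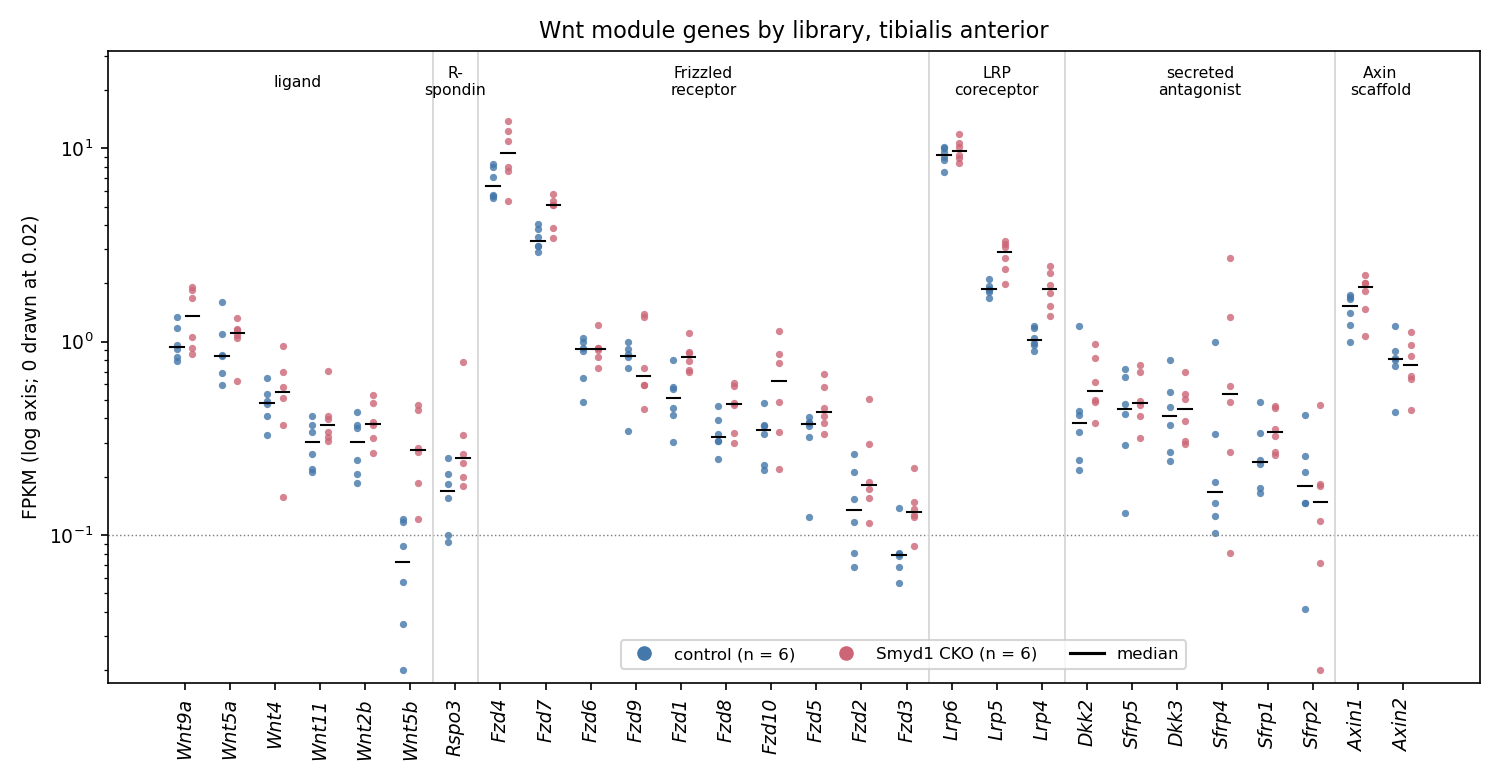
FPKM of the 28 tested members on a log axis, each dot a library, controls to the left and CKOs to the right of each name, with black lines at the medians, the dotted line at 0.1 FPKM and values of 0 drawn at 0.02. Lrp6, Fzd4 and Fzd7 lie above the rest, and the CKO dots of Lrp4 and Wnt5b lie above all control dots.

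Receptors were more abundant than ligands: in controls the Frizzleds summed to between 12.4 and 15.1 FPKM and the ligands to between 2.39 and 4.55 FPKM. In controls Fzd4 made up 49.5% ± 6.02 (SD, n = 6) of the summed Frizzled FPKM and Fzd7 25.4% ± 3.53, and Lrp6 made up 75.8% ± 2.43 of the summed FPKM of Lrp4, Lrp5 and Lrp6. Among ligands Wnt9a held 30.6% ± 3.15 and Wnt5a 28.0% ± 5.88 of the sum. In CKOs the share of Lrp6 was 67.9% ± 5.08 and that of Lrp4 13.1% ± 2.85, against 8.67% ± 1.32 for Lrp4 in controls, while the shares of Fzd4, Fzd7 and Wnt9a differed between groups by less than their SDs.

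The comparison of CKO with control asks which of these genes differ when Smyd1 is deleted in myofibers. Fold changes are on the log2(FPKM + 0.1) scale, which understates the change of low genes, and a gene is said to rise or fall only at a limma p-value under 0.05 after Benjamini-Hochberg adjustment over all 12695 genes. By that rule 2 of 28 members, Lrp4 and Wnt5b, were called higher in CKOs and 0 lower, against 2.02% of all genes tested for higher and 0.268% for lower. Wnt5b was in the test only because its CKO libraries passed the filter, so its call is given as a description. Lrp4 is the member that rose by this rule on FPKM as deposited. It was not called after median-ratio scaling, after quantile normalization or without CKO 1, CKO 3 and CKO 6. With no filter limma called Lrp4 alone, at adjusted p = 0.0299 against 0.0539 for Wnt5b, with 0.949% of all genes called higher. At an unadjusted p under 0.05, 8 members were higher (Lrp4, Wnt5b, Lrp5, Fzd7, Fzd1, Fzd4, Rspo3 and Fzd10) and 0 were lower, against 18.1% and 1.76% of all genes. The study also cut at p under 0.05, but with DESeq on counts, so these counts do not stand for its calls. The median log2 fold change of the tested members was 0.35, with 26 of 28 above 0. Over all genes tested the median was 0.18 with 77.9% above 0, so that most of the transcriptome leaned the same way on the deposited scale. With no filter on low values the medians were 0.26 over 44 members and 0.13 over all genes. Above 0 were then 38 of the 44 members and 72.7% of all genes. Summed over all 46 members, levels ran from 30.3 to 35.3 FPKM in controls and from 33.2 to 48.9 FPKM in CKOs, with CKO 2 alone inside the control range.

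Median-ratio scaling sets the typical gene at no change. Over all genes the median was then 0.01, with 845 higher and 941 lower at an unadjusted p under 0.05 in place of 2300 and 224. The median of the members was 0.19 with 21 of 28 above 0, against 51.3% of all genes. Lrp4, Wnt5b, Lrp5 and Fzd1 were then higher at an unadjusted p under 0.05, against 6.66% of all genes. With adjustment limma called 0 members, against 0.764% of all genes, with adjusted p = 0.0673 for Lrp4 and 0.0777 for Wnt5b. Quantile normalization left 4 members at an unadjusted p and 0 with adjustment, against 6.38% and 0.796% of all genes. Without CKO 1, CKO 3 and CKO 6, limma called 0 of 26 members with adjustment and 2, Lrp4 and Sfrp4, at an unadjusted p, against 0.0329% and 7.02% of all genes. Without control 1 it called 4 of 28 with adjustment, Fzd1, Lrp4, Lrp5 and Wnt5b, against 8.56% of all genes, and 8 at an unadjusted p, against 27.2%.

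**Figure D3:**
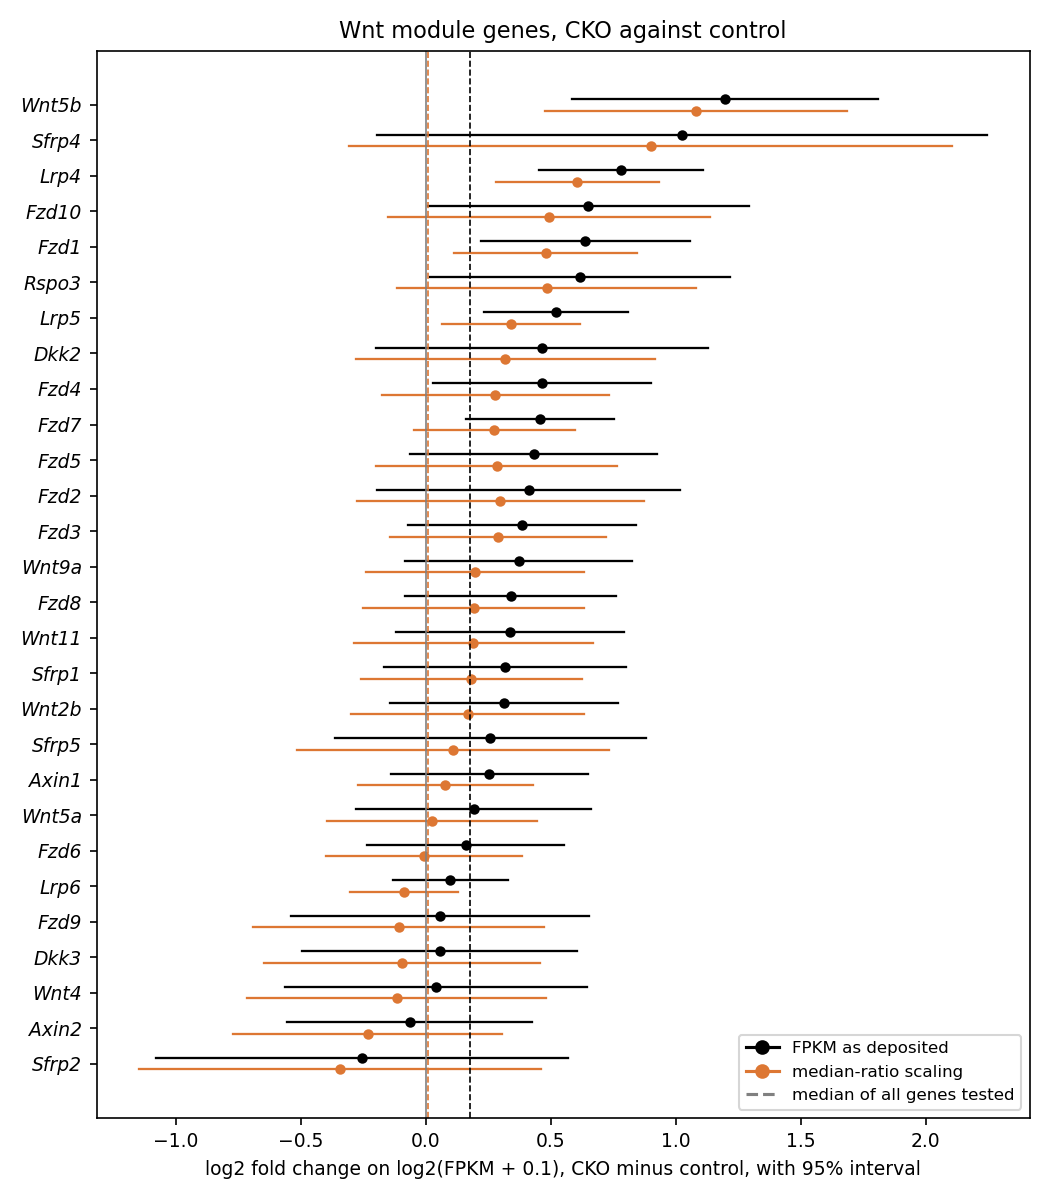
Log2 fold change of CKO over control with its 95% interval for the 28 tested members, from FPKM as deposited (black) and after median-ratio scaling (orange), dashed lines marking the median of all genes tested under each. Most members lie above 0 on the deposited scale, and Wnt5b, Lrp4, Fzd1 and Lrp5 keep intervals above 0 after scaling.

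Lrp4 (chr2:91457456-91513901, GRCm38), the agrin receptor that also binds Wnt antagonists, showed the firmest difference among the coreceptors. In controls it ran from 0.895 to 1.20 FPKM with a median of 1.01, and in CKOs from 1.35 to 2.47 FPKM with a median of 1.87. All 6 CKOs lay above all 6 controls, as they did for 2.23% of all genes tested, with CKO 3 and CKO 6 highest and CKO 5 lowest. The means were 1.04 ± 0.119 and 1.89 ± 0.427 FPKM (SD, n = 6), with a log2 fold change of 0.78 ± 0.15 (SE) and adjusted p = 0.0175 by limma. Without CKO 1, CKO 3 and CKO 6 the log2 fold change was 0.57 with adjusted p = 0.408, and the remaining CKOs still lay above all controls. No base of its exons is shared with another annotated gene in GENCODE M21.

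Lrp5, the other canonical coreceptor besides Lrp6, ran from 1.69 to 2.11 FPKM in controls (median 1.86) and from 1.98 to 3.32 FPKM in CKOs (median 2.90). The groups overlapped through CKO 2 alone, and CKO 6, CKO 1 and CKO 3 were the highest. Its log2 fold change was 0.52 ± 0.13 (SE), with limma adjusted p = 0.0579. Without those 3 CKOs it was 0.30, with adjusted p = 0.633, and it passed the test without control 1, CKO 2 or CKO 5, at adjusted p from 0.0193 to 0.0466. For Lrp6 the log2 fold change was 0.10 ± 0.11 (SE) with adjusted p = 0.637, and it was -0.09 after median-ratio scaling.

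All 10 Frizzled receptors were tested, and all 10 had log2 fold changes above 0 as deposited, against 77.9% of all genes. After median-ratio scaling 8 of them did, against 51.3% of all genes. Fzd3 passed the filter with 1 control and 5 CKO libraries, so its sign is given as a description. Summed over the family, levels ran from 12.4 to 15.1 FPKM in controls and from 13.4 to 23.4 FPKM in CKOs, with 5 of 6 CKOs above every control. No Frizzled passed the adjusted test, and 4 passed without adjustment, against 2.02% and 18.1% of all genes for higher.

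Fzd7 ran from 2.91 to 4.06 FPKM in controls (median 3.32) and from 3.45 to 5.81 FPKM in CKOs (median 5.10). CKO 1, CKO 3, CKO 4 and CKO 6 lay above every control, while CKO 2 and CKO 5 lay among them. Its log2 fold change was 0.46 ± 0.14 (SE), with limma adjusted p = 0.0970, and without CKO 2 it was 0.54 with adjusted p = 0.0405. Fzd1, a receptor for canonical and other Wnts, ran from 0.301 to 0.803 FPKM in controls (median 0.511) and from 0.697 to 1.11 FPKM in CKOs (median 0.834). Control 1 was the highest of its controls and lay among the CKOs, and the other 5 controls lay below all CKOs. Its log2 fold change was 0.64 ± 0.20 (SE) with limma adjusted p = 0.102, and without control 1 it was 0.75 with adjusted p = 0.0226.

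Fzd4 ran from 5.53 to 8.33 FPKM in controls (median 6.41) and from 5.31 to 13.9 FPKM in CKOs (median 9.43), a wider spread in CKOs. CKO 4, CKO 5 and CKO 1 were above all controls and CKO 2 was below all of them. The log2 fold change was 0.46 ± 0.20 (SE), with limma adjusted p = 0.225. Fzd10 ran from 0.217 to 0.483 FPKM in controls (median 0.348) and from 0.220 to 1.13 FPKM in CKOs (median 0.629). Its highest CKOs were CKO 6, CKO 3 and CKO 1, the libraries with the high slow-twitch sums, whose part in the difference was not tested beyond leaving them out. The log2 fold change was 0.65 ± 0.30 (SE) with limma adjusted p = 0.245, and without those 3 libraries it was 0.04. Fzd9 was highest in CKO 3 and CKO 1, at 1.38 and 1.34 FPKM against 0.446 to 0.730 FPKM in the other CKOs and 0.345 to 0.997 FPKM in controls. Fzd6, a receptor of the polarity branch, ran from 0.486 to 1.04 FPKM in controls and from 0.731 to 1.22 FPKM in CKOs. Fzd8 and Fzd5 each had 4 CKOs above all controls, Fzd8 at 0.297 to 0.609 FPKM in CKOs against 0.246 to 0.467 FPKM and Fzd5 at 0.332 to 0.681 FPKM against 0.123 to 0.406 FPKM. Fzd2 and Fzd3 were the lowest receptors, at 0.149 and 0.0835 FPKM on average in controls. The 6 Frizzleds besides Fzd1, Fzd4, Fzd7 and Fzd10 had log2 fold changes from 0.06 (Fzd9) to 0.43 (Fzd5), and none reached an unadjusted p under 0.05.

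**Figure D4:**
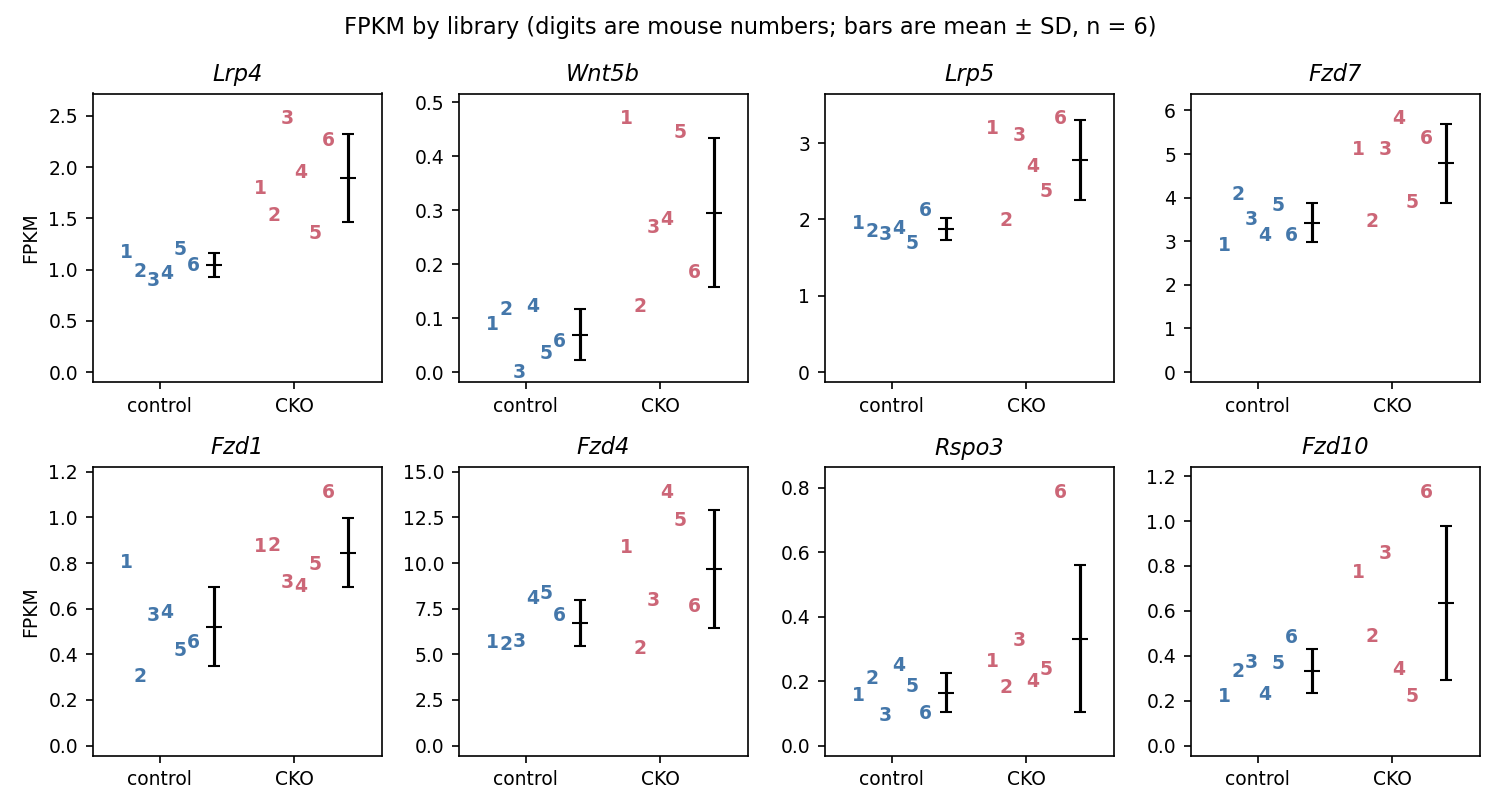
FPKM by library of the 8 members higher in CKOs at an unadjusted p under 0.05, each digit the mouse number within its group and each bar the mean ± SD of 6 mice. Control and CKO digits do not overlap for Lrp4 and, narrowly, for Wnt5b, while CKO 6 sets the top for Lrp5, Fzd1, Rspo3 and Fzd10.

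Of the 19 Wnt ligands, 6 passed the filter (Wnt9a, Wnt5a, Wnt4, Wnt11, Wnt2b and Wnt5b). Wnt9a, the ligand with the highest level, ran from 0.797 to 1.35 FPKM in controls (median 0.942) and from 0.865 to 1.91 FPKM in CKOs (median 1.36), with a log2 fold change of 0.37 ± 0.21 (SE) and limma adjusted p = 0.344. The groups overlapped, with CKO 1, CKO 5 and CKO 6 above all controls. Wnt5a, a ligand best known from signaling without beta-catenin, ran from 0.596 to 1.61 FPKM in controls and from 0.626 to 1.32 FPKM in CKOs, so that the CKO range lay inside that of controls. Wnt4 spread more widely in CKOs, from 0.157 FPKM in CKO 2 to 0.949 FPKM in CKO 3, than in controls, from 0.330 to 0.647 FPKM. Wnt11, a ligand that acts on cell movement and polarity, ran from 0.212 to 0.414 FPKM in controls and from 0.307 to 0.708 FPKM in CKOs, with CKO 5 highest. Wnt2b ran from 0.185 to 0.431 FPKM and from 0.264 to 0.5263 FPKM. These 4 ligands overlapped between groups, had log2 fold changes between 0.04 (Wnt4) and 0.34 (Wnt11), and passed neither test.

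Wnt5b (chr6:119432531-119544824, GRCm38), a ligand known mainly from signaling without beta-catenin, was the only ligand past the adjusted threshold, and was tested only through its CKO libraries. Its level in controls ran from 0 to 0.121 FPKM with a median of 0.0721, and in CKOs from 0.121 to 0.470 FPKM with a median of 0.276. The groups did not overlap, but CKO 2 at 0.1212 FPKM lay just above control 4 at 0.1209 FPKM. Means were 0.0694 ± 0.0478 and 0.295 ± 0.138 FPKM (SD, n = 6), with a log2 fold change of 1.20 ± 0.29 (SE) and limma adjusted p = 0.0433. FPKM values came in steps of 1 fragment, which gave the fragments behind them, to within 0.05 of a whole number. Controls 1 to 6 held 2, 3, 0, 3, 1 and 2 fragments of Wnt5b and CKOs 1 to 6 held 19, 3, 8, 10, 10 and 5, so that 11 fragments stood against 55, a ratio of 4.63 per unit of depth. Wnt5b passed the filter through the CKOs, which reached 0.1 FPKM in all 6 libraries against 2 controls, so a difference in that direction was needed for it to be tested. With no filter its adjusted p was 0.0539 and under the replicate block 0.0685. Leaving out any library other than control 1 or CKO 2 took its adjusted p by limma to between 0.0598 and 0.116, with log2 fold changes from 1.06 to 1.29.

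The other 13 ligands did not pass the filter. Their values reached at most 0.237 FPKM, for Wnt7a in CKO 5, its only library above 0. A value in a single library does not give its fragments. For untested members with values in several libraries, the steps gave at most 7 fragments in a library. Wnt8a was listed at 0 in every library. Wnt10b, a canonical ligand known to hold back fat formation, was listed at 0 in all 6 controls and at 0.141, 0.0384, 0, 0.0806, 0.0845 and 0.176 FPKM in CKOs 1 to 6, from 17 fragments. With a floor of 3 fragments over the control group it was at least 5.25-fold higher in CKOs, a bound that covers counting error in the controls only and not the spread between mice, since CKO 3 held no fragment. In the fit without a filter it had limma adjusted p = 0.0717, and it was described after its values were seen. At the edge of the filter, Fzd3 passed with 6 libraries at 0.1 FPKM, 1 control and 5 CKOs, so it too was tested only through its CKOs. Its means were 0.0835 FPKM in controls and 0.140 FPKM in CKOs. Wnt8b missed the filter with 5 libraries, at 0.0799 and 0.0637 FPKM.

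R-spondins keep Frizzleds at the cell surface by removing the ligases that degrade them. Of the 4, Rspo3 passed the filter, while Rspo1, Rspo2 and Rspo4 reached 0.1 FPKM in no library. Rspo3 ran from 0.0918 to 0.249 FPKM in controls (median 0.168) and from 0.179 to 0.785 FPKM in CKOs (median 0.249). CKO 6 was far above the others, CKO 1 and CKO 3 lay just above all controls, and the other 3 CKOs lay among them. The log2 fold change was 0.62 ± 0.28 (SE), with limma adjusted p = 0.239, and 0.23 without CKO 1, CKO 3 and CKO 6. An antisense gene, Gm48159, shares 13.1% of the exon bases of Rspo3 in GENCODE M21, and whether strand was used in counting is not given in the sources used here.

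Among the 8 secreted antagonists, which bind Wnts (Sfrp) or Lrp5 and Lrp6 (Dkk1, Dkk2 and Dkk4), 6 were tested and limma called 0 of them, with or without adjustment. Without control 1, 3 of the 6 were higher at an unadjusted p under 0.05 (Dkk2, Sfrp1 and Sfrp4), against 27.2% of all genes, and 0 with adjustment. Dkk2 had the highest control mean and ran from 0.216 to 1.20 FPKM in controls (median 0.377) and from 0.381 to 0.973 FPKM in CKOs (median 0.558). Control 1 was its highest library, and the log2 fold change was 0.47 ± 0.31 (SE) with adjusted p = 0.408. Sfrp4, a matrix-associated antagonist, had the largest log2 fold change of the group, 1.03 ± 0.57 (SE) with adjusted p = 0.329, and a wide spread. It ran from 0.103 to 0.9998 FPKM in controls (median 0.167) and from 0.0810 to 2.72 FPKM in CKOs (median 0.537), with CKO 4 and CKO 6 at the top and CKO 3 at the bottom. Without control 1 the fold change was 1.37 with limma adjusted p = 0.116. The remaining 4, Dkk3, Sfrp1, Sfrp2 and Sfrp5, lay between -0.26 and 0.32. Dkk1 was above 0 in CKO 1 alone, at 0.0234 FPKM, and Dkk4 was listed at 0 throughout.

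Connective tissue cells are known to make several Sfrp and Dkk proteins, and control 1, with the highest sum of the 14 fibroblast markers, had the highest control levels of Dkk2, Sfrp1, Sfrp2 and Sfrp4. Dkk3 was highest in control 5, at 0.802 FPKM against 0.551 FPKM in control 1, and Sfrp5 in control 1 was second lowest of the controls, at 0.292 FPKM. Of those 14 markers, 4 were higher and 0 lower in CKOs by limma at an unadjusted p under 0.05, against 18.1% of all genes for higher, and 12 were higher without control 1, against 27.2%. Of 8 satellite cell markers 7 were tested, and 4 were higher and 0 lower, against 18.1% and 1.76% of all genes. Among them Calcr reached 0.1 FPKM in 2 controls and 6 CKOs, so it passed the filter through the CKOs. The satellite cell sums were 7.14 to 11.4 FPKM in controls and 8.90 to 16.0 FPKM in CKOs. Most of each sum was Sdc4, at 4.52 to 8.77 FPKM in controls and 4.97 to 11.3 FPKM in CKOs, which was not among the markers called. Of 7 adipocyte markers 5 were tested, and 3 were higher (Retn, Cfd and Adipoq) and 0 lower. Retn, an adipocyte hormone, had a log2 fold change of 1.80 and limma adjusted p = 0.0322. It reached 0.1 FPKM in 2 controls and 6 CKOs, so it was tested only through its CKO libraries and is given as a description. With no filter its limma adjusted p was 0.0530. The adipocyte sums, nearly all Fabp4, ran from 94.7 to 307.7 FPKM in controls and from 96.2 to 211.2 FPKM in CKOs. Tendon markers, also of connective tissue, went the other way, with 0 of 8 higher and 2 lower, Mkx and Kera, at an unadjusted p. Of 8 endothelial and 8 macrophage markers 0 were called, while 1 of 8 smooth muscle and pericyte markers and 3 of 8 Schwann cell markers were higher. Without control 1, 6 of the 8 macrophage markers were higher at an unadjusted p and 1 with adjustment, against 27.2% and 8.56% of all genes. Of the endothelial markers 0 were called there too. No marker of the lists in this paragraph was at 0 in every library. The part of these cells in the differences of the members was not tested.

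Axin1, the scaffold of the destruction complex, ran from 0.998 to 1.74 FPKM in controls (median 1.53) and from 1.07 to 2.20 FPKM in CKOs (median 1.91), with a log2 fold change of 0.25 ± 0.18 (SE) and limma adjusted p = 0.448. Axin2, the feedback target of beta-catenin, ran from 0.435 to 1.20 FPKM in controls (median 0.811) and from 0.442 to 1.12 FPKM in CKOs (median 0.753). The groups overlapped over almost their whole ranges, and the log2 fold change of Axin2 was -0.06 with a 95% interval from -0.55 to 0.42 and adjusted p = 0.900.

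Beyond the members, 82 genes that make, carry, sense or relay Wnt signals were listed and 68 of them tested. With adjustment, limma called 4 of 68 higher and 0 lower, against 2.02% and 0.268% of all genes: Dvl1, which relays the signal from Frizzleds (log2 fold change 0.48, adjusted p = 0.0151), Csnk1g2, a kinase that acts on Lrp6 (0.42, adjusted p = 0.0277), Wls, the carrier of Wnts to the cell surface (0.63, adjusted p = 0.0482), and Camk2d, a calcium-dependent kinase (0.70, adjusted p = 0.0493). Dvl1 kept its call with each single library left out, and Wls kept it only without control 1 or CKO 5, with adjusted p from 0.0538 to 0.116 otherwise. Csnk1g2 lost its call without CKO 1, CKO 3, CKO 4 or controls 2, 4, 5 or 6 (adjusted p from 0.0552 to 0.0750), and Camk2d without CKO 1, CKO 3, CKO 6 or any of controls 2 to 6 (from 0.0671 to 0.130). Without adjustment 20 were higher and 2 were lower, against 18.1% and 1.76% of all genes. The next smallest p-values belonged to Ctnnbip1, which blocks beta-catenin from TCF (log2 fold change 0.48, adjusted p = 0.0567), Kremen1, a receptor for Dkk proteins (0.36, adjusted p = 0.0690), Porcn, which attaches the lipid to Wnts (0.74, adjusted p = 0.0830), and Csnk1g3 (0.51, adjusted p = 0.0984). After median-ratio scaling 11 were higher and 10 lower without adjustment, against 845 and 941 of all 12695 genes. With adjustment limma called 0 higher and 1 lower, against 97 and 90 of all genes. The lower gene was Lgr4, an R-spondin receptor (log2 fold change -0.49, limma adjusted p = 0.0452). The median of these 68 genes was 0.15 as deposited and -0.03 after scaling, beside 0.18 and 0.01 over all genes.

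Of 16 listed targets of beta-catenin, 10 were tested and 4 were higher without adjustment, Tnfrsf19, Fst, Znrf3 and Apcdd1, and 0 were lower, against 18.1% and 1.76% of all genes. Log2 fold changes were above 0 for 8 of the 10, against 77.9% of all genes, and below 0 for Nkd1 (-0.31) and Tcf7 (-0.12). Lef1, Notum, Lgr5, Rnf43, Sp5 and Mmp7 were too low to test. Several targets, Znrf3 and Apcdd1 among them, are also counted among the 82 genes above. With adjustment limma called Tnfrsf19, a receptor of the TNF family, which ran from 0.909 to 1.62 FPKM in controls (median 1.21) and from 1.74 to 5.26 FPKM in CKOs (median 3.64). Its groups did not overlap, and its log2 fold change was 1.36 ± 0.25 (SE) with adjusted p = 0.0113. CKO 1, CKO 3 and CKO 6, the libraries with the high slow-twitch sums, were its highest, at 5.26, 4.65 and 4.33 FPKM against 1.74 to 2.96 FPKM in the other CKOs, and also the highest for Fst. Without them 1 of 9 targets was higher without adjustment and 0 with it, against 7.02% and 0.0329% of all genes. Tnfrsf19 then had a log2 fold change of 0.83 and limma adjusted p = 0.306. After median-ratio scaling 2 of the 10 targets were higher without adjustment and 1 with it, against 6.66% and 0.764% of all genes. The target called with adjustment was Tnfrsf19, at limma adjusted p = 0.0279. Many of these genes, Fst among them, also answer to other pathways.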

How the data were processed

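RNA of the tibialis anterior of 6 control and 6 Smyd1 CKO mice was depleted of ribosomal RNA and sequenced. By the paper's methods and the submitters' processing notes, the authors aligned reads to mm9 with TopHat2 2.0.10 (at most 2 mismatches, multiply mapped reads discarded) and computed the deposited FPKM per gene with Cufflinks 2.1.1. The study's own test used counts, which were not used here. Total read numbers do not follow from FPKM, which limits precision to the spread between mice.

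Each file listed 23950 symbols, of which 27 were dates in place of symbols and were left out. Genes with at least 0.1 FPKM in 6 of 12 libraries were kept, log2(FPKM + 0.1) was fitted with limma 3.58.1 (R 4.3.3, trended empirical Bayes) on group alone, and p-values were adjusted by Benjamini-Hochberg over all genes tested. The fit was tested on simulated data, with no shift over all genes. Changes were set only in genes at higher levels than most members had, so that test does not speak for the low members. The fit was repeated with 1 FPKM added before the log, with the filter raised to 1 FPKM or dropped, and after median-ratio scaling (each library divided by its median ratio to the geometric mean) or quantile normalization, and also with a replicate block, no trend, sample weights or libraries left out. The members and gene lists were chosen with earlier results of these data known. Values were given per group for every member at an unadjusted p under 0.05 under either scaling and for the member with the highest control mean in each role, and other pathway genes were named at an adjusted p under 0.05 or among the 8 smallest p-values, with exceptions said where they stand. Coordinates are GRCm38 (GENCODE M21, RefSeq), not the authors' build.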

Additional observations from a re-analysis of the deposited data

Results flagged for a closer look

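In 56 groups of 6 libraries, 1 member's levels in 1 group each, 6 held a library whose gap to its nearest neighbour exceeded Dixon's 95% critical value, and chance gives about 1 in 20. Control 1 had 1.20 FPKM of Dkk2 against 0.216 to 0.435 FPKM in the other controls. Control 1 also had 0.9998 FPKM of Sfrp4 against 0.103 to 0.331 FPKM. Control 3 had 0.138 FPKM of Fzd3 against 0.0566 to 0.0803 FPKM. Control 4 had 0.123 FPKM of Fzd5 against 0.322 to 0.406 FPKM. CKO 6 had 0.785 FPKM of Rspo3 against 0.179 to 0.327 FPKM in the other CKOs. CKO 5 had 0.708 FPKM of Wnt11 against 0.307 to 0.412 FPKM.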

How the results depend on the processing

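The count of members called higher with adjustment was 2. It was 0 under median-ratio scaling, under quantile normalization and without CKO 1, 3 and 6, 1 with no filter, with a pseudocount of 1 and under the replicate block, 5 with sample weights, and 1 to 4 with single libraries left out. Lrp4 was called under 18 of 21 alternatives (adjusted p 0.00299 to 0.408) and Wnt5b under 4 of 19 (0.0120 to 0.120), while Wnt5b was not tested without CKO 1, 3 and 6. The count of 8 without adjustment was 4 with a filter at 1 FPKM, under median-ratio scaling and under quantile normalization, 2 without CKO 1, 3 and 6, and 5 to 8 with single libraries left out. No alternative called a member lower.

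Of the other pathway genes, the count of 4 higher with adjustment was 1 without trend, 0 under median-ratio scaling, quantile normalization and without CKO 1, 3 and 6, 2 with no filter, 13 with sample weights, and 1 to 10 with single libraries left out. The count of lower genes was 1 under median-ratio scaling. Without adjustment 20 higher and 2 lower became 11 and 10 under median-ratio scaling, 6 and 9 under quantile normalization and 9 and 0 without CKO 1, 3 and 6. A filter at 1 FPKM gave 13 higher, and single libraries left out gave 15 to 22 higher and 1 to 3 lower.

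Directions turned for members that passed no test. Log2 fold changes under median-ratio scaling and quantile normalization were -0.10 and -0.17 for Dkk3, -0.0078 and -0.0639 for Fzd6, -0.11 and -0.15 for Fzd9, -0.0891 and -0.0464 for Lrp6, and -0.12 and -0.18 for Wnt4. Wnt5a was at -0.0324 under quantile normalization and Dkk3 at -0.0173 with sample weights. Without CKO 1, 3 and 6, Axin1 was at -0.0017, Fzd9 at -0.32 and Wnt4 at -0.40. With single libraries left out, Axin2 ran from -0.211 to 0.0644, Dkk3 from -0.0663 to 0.215, Fzd9 from -0.13 to 0.19 and Wnt4 from -0.13 to 0.28. The causes were not tested.

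Mouse numbers are shared between groups, but deviations of same-numbered mice correlated at -0.086 to 0.164 and over 0.1 in 2 of 6 pairs, so the numbers were not taken to pair the mice. The replicate block left 1 member called with adjustment and 7 without.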
